A study of Mus musculus with 12 samples.

Results

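The aldo-keto reductases of the Akr1b and Akr1c subfamilies were described in 12 livers of B6C3F1 mice, a hybrid strain long used in rodent cancer bioassays. The arrays compared 6 spontaneous hepatocellular carcinomas (HCC) with 6 normal livers as controls, all untreated and from a 2-year National Toxicology Program bioassay. Each sample was measured on 1 single-colour Affymetrix array. The labels give no age at collection, sex, batch or driver mutation, and do not say whether each sample came from a separate mouse. The family was chosen by the rise of 1 gene, Akr1c18, in HCC against normal liver in these same arrays, and its relatives were then taken by name. Of 10 listed genes, 8 had a probe set in the annotation used here, through 10 of the 45037 probe sets tested, out of 18193 genes in all. Of these 10 probe sets, 9 named 1 gene and 1 named Akr1c12 and Akr1c13 together. No probe set was paired with Akr1b3, the aldose reductase, or with Akr1b7, and these were not analysed here.

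Aldo-keto reductases are soluble enzymes that use NADPH to reduce aldehydes and ketones to alcohols. Members of the Akr1c subfamily act mainly on the keto and hydroxyl groups of steroids, and so switch hormones such as progesterone, androgens and oestrogens between forms of different activity. Members of the Akr1b subfamily act on sugars, prostaglandin precursors and reactive aldehydes from lipids. In the mouse the Akr1c genes lie side by side on chromosome 13, in the order Akr1c14, Akr1c18, Akr1c13, Akr1c19, Akr1c12, Akr1c6, Akr1c20 and Akr1c21. The Akr1b genes lie on chromosome 6, with Akr1b8 between Akr1b3 and Akr1b10. The liver is the main site where circulating steroids are reduced and cleared, and several of these enzymes are abundant hepatocyte proteins.

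Sequences are shown for Akr1c18, for Akr1c14 and Akr1c13, which flank it on the chromosome, and for Akr1c12, which shares a probe set with Akr1c13. Each is the run of 250 bases before the start site, from RefSeq on GRCm38.p6, written 5′ to 3′ on the strand of the gene. Akr1c18 lies at chr13:4150647-4150896 on the minus strand, Akr1c14 at chr13:4059341-4059590 on the plus strand, Akr1c13 at chr13:4190937-4191186 on the plus strand and Akr1c12 at chr13:4279400-4279649 on the minus strand. Capitals mark matches, on either strand, to the half-site GTTAAN of the liver factor HNF1.
Akr1c18: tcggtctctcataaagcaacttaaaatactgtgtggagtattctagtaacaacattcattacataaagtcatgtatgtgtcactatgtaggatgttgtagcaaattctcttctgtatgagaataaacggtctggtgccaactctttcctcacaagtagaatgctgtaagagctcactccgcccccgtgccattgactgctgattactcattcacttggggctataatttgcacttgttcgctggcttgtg
Akr1c14: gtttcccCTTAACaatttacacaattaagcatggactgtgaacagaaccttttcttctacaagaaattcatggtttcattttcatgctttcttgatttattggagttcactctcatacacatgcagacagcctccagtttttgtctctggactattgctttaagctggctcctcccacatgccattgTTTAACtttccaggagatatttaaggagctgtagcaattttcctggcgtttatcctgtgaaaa
Akr1c13: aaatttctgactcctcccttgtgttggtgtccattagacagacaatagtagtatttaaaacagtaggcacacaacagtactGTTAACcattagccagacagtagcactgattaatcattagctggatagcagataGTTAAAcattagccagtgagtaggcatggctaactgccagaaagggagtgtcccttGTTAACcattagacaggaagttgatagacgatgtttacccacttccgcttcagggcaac
Akr1c12: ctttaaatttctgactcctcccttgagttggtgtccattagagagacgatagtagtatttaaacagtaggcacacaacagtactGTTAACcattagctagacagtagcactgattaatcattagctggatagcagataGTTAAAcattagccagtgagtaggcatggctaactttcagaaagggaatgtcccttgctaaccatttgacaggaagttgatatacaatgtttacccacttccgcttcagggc

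The windows of Akr1c12 and Akr1c13 were identical at 235 of 254 aligned positions, or 92.5%. Against the window of Akr1c18, that of Akr1c14 was identical at 55.9% of positions and that of Akr1c13 at 50.8%. For comparison, the windows of Akr1b7 and Akr1b8, on another chromosome, matched that of Akr1c18 at 50.7% and 50%. Among the 8 members with a window in the table, Akr1b7 included, the next highest identity was 60.3%, between Akr1c13 and Akr1c19. The GTTAAN half-site matched 3 times in Akr1c13, 2 times in Akr1c12, 2 times in Akr1c14 and 0 times in Akr1c18. It also matched 0 times in Akr1c6, Akr1c19, Akr1b7 and Akr1b8, and 21.6% of all 32851 promoter windows of this length held it. Searched on both strands, the antioxidant response core TGACNNNGC (10.2% of all windows), the AP-1 site TGANTCA (6.75%) and the TCF site ATCAAAG (3.21%) matched in none of the 8 windows. The nuclear receptor half-site AGGTCA (14% of all windows) matched only in that of Akr1b7. The TATA box TATAAA (12.4%) matched only in those of Akr1c6 and Akr1b8. A match is only the occurrence of these letters.

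Levels are given as log2(intensity + 16) after quantile normalization, so 4 is the lowest value possible and the median probe set lay at 6.76. Values of different probe sets are not compared as levels. The labelled tissue carried its defining markers: the mean of 6 hepatocyte genes, lay between 14.98 and 15.13 in normal livers and between 14.73 and 15.08 in HCC, and none of the 6 passed the test. The closest was tyrosine aminotransferase (Tat), with a difference of -1.14 (limma adjusted p = 0.0503). These means say little about hepatocyte content, since markers such as Apoa1, at 16.06 in every normal liver, sit at the top of the scale, where normalization leaves little room for change. In bulk tissue, fewer cells of a type and less RNA per cell cannot be told apart. P-values measure the spread between these samples, which may share mice.

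Akr1c18 encodes the 20-alpha-hydroxysteroid dehydrogenase that converts progesterone into a form with little hormone activity, and it is best known from the ovary at the end of pregnancy. Its deposited intensity was 168, 12.3, 14.4, 50.02, 274 and 58.0 in normal livers 1 to 6. In HCC 1 to 6 it was 21814, 15079, 7805, 14026, 11852 and 6591. The groups did not overlap, and the lowest tumour lay 24.0-fold above the highest normal liver. In intensity, the median of the tumours was 239.5-fold that of the normal livers, a ratio that rests on low values in normal liver. On the log2 scale Akr1c18 was at 6.32 ± 1.40 in normal liver and 13.59 ± 0.58 in HCC (SD, n = 6 each), a difference of 7.27 ± 0.55 (SE). Counted from the largest rise, it had rank 4 of all 45037 probe sets. Because this contrast chose the family, these values are a description and no p-value is given. Complete separation with HCC higher was found in 3.41% of all probe sets.

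**Figure D1:**
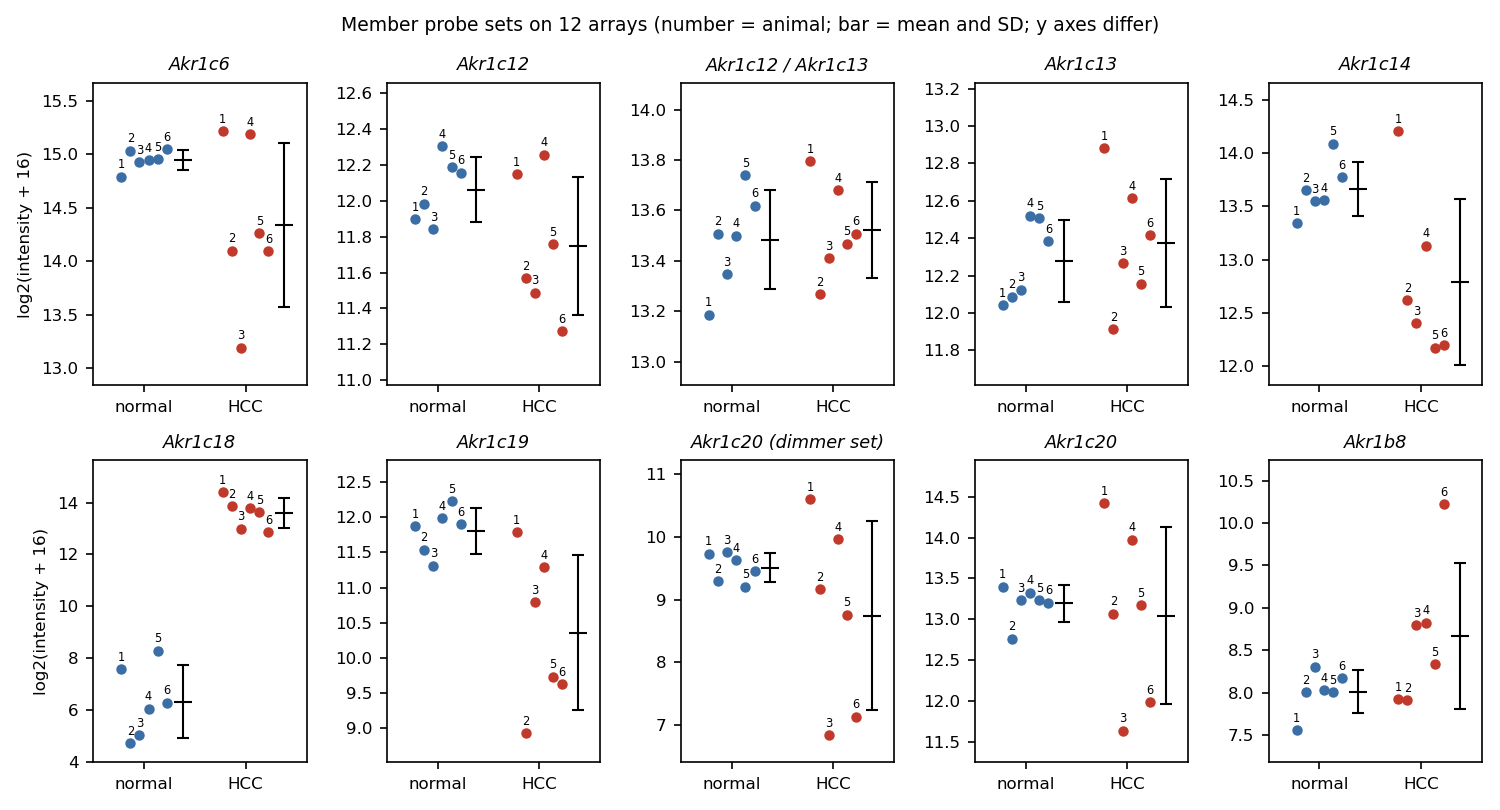
Level of the 10 member probe sets, as log2(intensity + 16), in 6 normal livers and 6 HCC. Each point is 1 array with its number, the bar gives the mean and SD, and each panel has its own y axis that does not start at 0. The number is that of the sample within its group, though the title calls it the animal. Equal numbers in the groups are not pairs. The tumours lie above the normal livers without overlap in Akr1c18 alone. In the 7 other genes they have a larger SD than the normal livers, though not in the probe set shared by Akr1c12 and Akr1c13.

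Of the 9 other member probe sets, 0 passed the test between HCC and normal liver (limma, Benjamini-Hochberg adjusted p under 0.05 over all probe sets), and 2 had an unadjusted p under 0.05, those of Akr1c14 and Akr1c19. Among all probe sets 8.33% passed, 4.38% as higher and 3.95% as lower in HCC. The median log2 difference of the 7 other member genes, each by its brightest probe set, was -0.31, against -0.04 for all genes taken the same way. For Akr1c18 the SD among tumours was 0.415 times that among normal livers. The normal spread rests on low intensities, from 12.3 to 274, near the floor of the scale. This ratio therefore does not show that the tumours are more uniform. In the 7 other genes the SD among tumours was 1.58 to 8.22 times that among normal livers, and 6 of them had a ratio over 2. Over the 22518 probe sets above the median level the median ratio was 1.32, and 25.8% had a ratio over 2. The highest ratio, that of Akr1c6, rests on a small SD in normal livers near the top of the scale.

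Akr1c14, the neighbour of Akr1c18 on one side, encodes a 3-alpha-hydroxysteroid dehydrogenase that inactivates potent androgens and reduces neurosteroids and bile acid precursors. It was at 13.34, 13.65, 13.55, 13.56, 14.09 and 13.77 in normal livers 1 to 6, and at 14.21, 12.62, 12.40, 13.13, 12.17 and 12.20 in HCC 1 to 6. Of the tumours, 5 lay below all normal livers and HCC 1 lay above them all. The difference was -0.87 ± 0.31 (SE, limma adjusted p = 0.111), so the groups did not differ by this test. Without HCC 1, the only tumour above the normal livers, it was -1.16, with a limma adjusted p of 0.00727. With any other single array left out it did not pass (limma adjusted p from 0.123 to 0.209).

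Akr1c13, the neighbour on the other side, and Akr1c12 encode closely related enzymes that act on a broad range of alcohols and ketones, steroids among them. Akr1c13 was between 12.04 and 12.52 in normal livers, with a median of 12.25, and between 11.91 and 12.88 in HCC, with a median of 12.34. The groups overlapped, and the difference was 0.10 ± 0.18 (SE, limma adjusted p = 0.808, 95% interval from -0.30 to 0.49), with a sign that turned negative under the deposited scaling and under median centring. Akr1c12 was at 11.84 to 12.31 in normal livers, with a median of 12.07, and at 12.15, 11.57, 11.49, 12.26, 11.76 and 11.27 in HCC 1 to 6. There HCC 2, HCC 3, HCC 5 and HCC 6 lay below all normal livers, and HCC 1 and HCC 4 within their range. The difference of -0.31 ± 0.19 (SE) did not pass (limma adjusted p = 0.354). The probe set that names both genes was at 13.48 ± 0.20 in normal liver and 13.52 ± 0.19 in HCC (SD, n = 6 each). With near-identical copies in this subfamily, how far each probe set separates its gene from the others was not tested.

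Akr1c19, which lies between Akr1c13 and Akr1c12 and encodes a less studied dehydrogenase of the same subfamily, had the largest difference after Akr1c18. It was at 11.87, 11.54, 11.31, 11.99, 12.23 and 11.90 in normal livers 1 to 6. In HCC 1 to 6 it was at 11.78, 8.93, 10.79, 11.29, 9.74 and 9.63. HCC 2, HCC 5 and HCC 6 were more than 1.5 below every normal liver, HCC 3 and HCC 4 were below them by less, and HCC 1 was within their range. The difference was -1.45 ± 0.43 (SE), and its limma adjusted p of 0.0540 missed the threshold of 0.05 by a small margin. It lay under 0.05 in 10 of 27 other settings, among them the fit to 1 probe set per gene (limma adjusted p = 0.0412), with a range from 0.0176 to 0.958. Without HCC 1 it was 0.0176 and without HCC 4 it was 0.0439 (limma adjusted p). With any other single array left out it was 0.0669 to 0.114 (limma adjusted p).

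Akr1c6 encodes the liver's 17-beta-hydroxysteroid dehydrogenase type 5, which interconverts weak and strong androgens and oestrogens. It was at 14.79 to 15.05 in normal livers. In HCC 1 to 6 it was at 15.22, 14.10, 13.19, 15.19, 14.27 and 14.09, so that HCC 1 and HCC 4 lay above every normal liver and the other 4 below. After quantile normalization the SD was 0.77 among tumours and 0.09 among normal livers. This probe set is brighter than 99.58% of all, near the top of the scale, where normalization leaves little room for change. Its deposited intensity ran from 24681.5 to 36385.5 in normal livers and from 8965.96 to 38642 in HCC. The difference in means was -0.61 ± 0.30 (SE, limma adjusted p = 0.244).

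Akr1c20, a hydroxysteroid dehydrogenase next to Akr1c6, was measured by a pair of probe sets. The brighter was at 12.76 to 13.40 in normal livers and at 14.42, 13.07, 11.63, 13.97, 13.17 and 11.98 in HCC 1 to 6. The dimmer was at 9.20 to 9.75 in normal livers and at 10.60, 9.16, 6.84, 9.96, 8.76 and 7.13 in HCC 1 to 6. By both probe sets HCC 1 and HCC 4 lay above every normal liver, and HCC 3 and HCC 6 below them. HCC 2 and HCC 5 lay within the normal range by the brighter probe set and below it by the dimmer. The differences in means were -0.15 ± 0.41 and -0.77 ± 0.56 (SE), and neither passed (limma adjusted p = 0.874 and 0.451). The sign of the first turned positive without HCC 3 and without HCC 6, at 0.13 and 0.06.

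Akr1b8 encodes an aldose reductase-like enzyme, first described as a protein induced by fibroblast growth factor, that reduces reactive aldehydes and retinal. It was at 7.56 to 8.31 in normal livers, with a median of 8.02, and at 7.92, 7.91, 8.79, 8.82, 8.33 and 10.23 in HCC 1 to 6. HCC 6 stood highest, HCC 3 and HCC 4 lay above the normal range, HCC 5 just above it, and HCC 1 and HCC 2 within it. The difference was 0.65 ± 0.34 (SE, limma adjusted p = 0.275), and it was 0.34 without HCC 6. HCC 6 also had the highest mean of the 6 stellate cell and fibroblast markers, at 11.63, against 6.87 to 8.78 in the 11 other arrays; of these 6 markers, Lrat passed the test as lower and the others did not pass. The mean of the 6 Kupffer cell and macrophage markers was 9.64 in HCC 6, within the normal range of 8.85 to 10.06. The part of these cells in the Akr1b8 level was not tested.

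**Figure D2:**
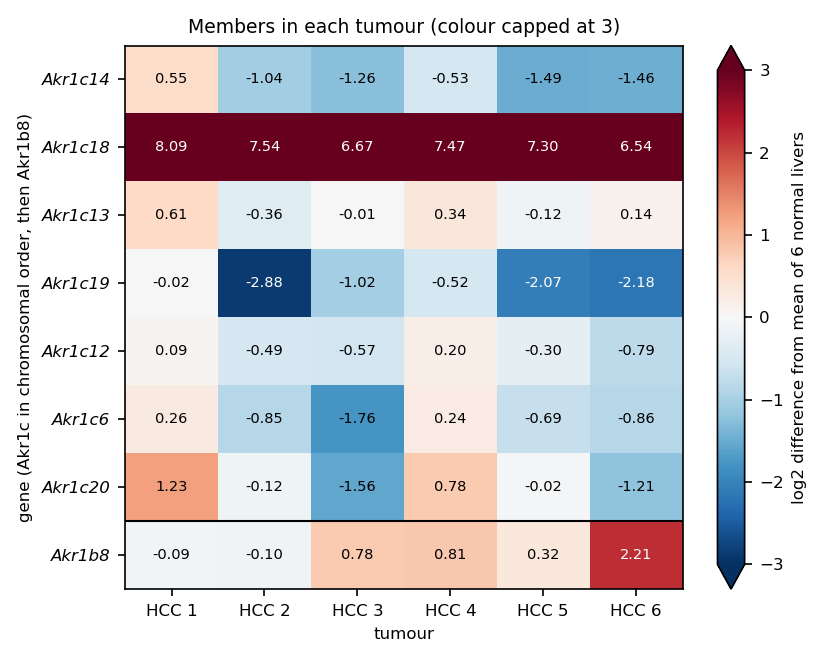
Log2 difference of each member gene from the mean of the 6 normal livers in each of the 6 HCC, with Akr1c genes in chromosomal order and Akr1b8 below the line. Red is higher and blue lower, and colours are capped at 3 while the printed values are not. Akr1c18 stands at 6.54 to 8.09 in every tumour, while Akr1c14 beside it runs from -1.49 to 0.55 and Akr1c13 from -0.36 to 0.61.

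Tumour by tumour, the Akr1c genes other than Akr1c18 were highest in HCC 1 and HCC 4. These were the highest tumours for 6 of 7 Akr1c genes, the exception being Akr1c18, where HCC 2 lay above HCC 4. Among 11383 other genes above the median level, 11.4% had HCC 1 and HCC 4 as their highest tumours. This order was noticed in these data and is given without a test. The median difference from normal liver over the 7 member genes without Akr1c18 was 0.26 in HCC 1 and 0.24 in HCC 4, and -0.49, -1.02, -0.30 and -0.86 in HCC 2, HCC 3, HCC 5 and HCC 6. HCC 1 and HCC 4 also had the highest levels of glutamine synthetase (Glul), a target of beta-catenin signalling, at 15.17 and 15.10. HCC 6 had 14.62, also above every normal liver, and its Akr1c genes other than Akr1c18 were mostly low. Axin2 levels were 11.76 (HCC 1), 10.34 (HCC 4) and 9.14 (HCC 6), and the highest normal liver had 8.76. The remaining tumours lay below every normal liver for Glul and for Axin2. The part of beta-catenin signalling in the member levels was not tested. In HCC 1, HCC 4 and HCC 2 the macrophage markers had means of 8.37, 8.64 and 8.66, below the normal range, and 9.64 to 9.85 in the other tumours. The hepatocyte means were also lowest in these 3 tumours, at 14.76, 14.73 and 14.78. In HCC 1 the stellate cell mean of 6.87 and the endothelial mean of 7.72 lay below the lowest normal livers, at 7.85 and 7.77. The part of these cell types in the member levels was not tested.

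HCC 1 and HCC 4 were also the only tumours without Y-linked signal, with a mean of Eif2s3y, Kdm5d and Uty of 4.85 and 4.23 against 8.96 to 9.77 in the other 4. Among normal livers, 2 lacked this signal and 4 had it. Within the arrays with the signal the difference was -1.42 for Akr1c14 (limma adjusted p = 0.0108) and -2.14 for Akr1c19 (limma adjusted p = 0.0210), each past the threshold there. Within those without it, the difference was 0.22 for Akr1c14 and -0.06 for Akr1c19. The interaction of group and Y-linked signal did not pass for any of the 10 probe sets (limma adjusted p from 0.306 to 0.960, and 0.0444% of all probe sets passed). At an unadjusted p under 0.05 there were 8 of the 10, against 7.55% of all probe sets. The 8 include both probe sets of Akr1c20 and the one shared by Akr1c12 and Akr1c13. The tumours without the signal are the pair noted above as highest for most Akr1c genes, so this count repeats that observation. Y-linked signal and the other traits of HCC 1 and HCC 4 cannot be told apart here. In normal livers, the mean of Akr1c18 was 6.33 with Y-linked signal and 6.30 without it, and its difference from HCC was 7.002 and 7.80.

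For each member that spanned at least 2 on the log2 scale over the tumours, the genes with the most similar pattern over the 6 HCC were named, out of 2853 candidates. Candidates spanned as much, and their highest tumour had to lie above the median probe set, so genes low in most tumours could enter. Akr1c18, Akr1c12 and Akr1c13 spanned less. Correlations over 6 tumours are descriptions: between 19 and 98 candidates exceeded a Pearson r of 0.9 for each member. Akr1c6 was most like the glycerol channel Aqp9 (r = 0.996), Rmdn2 (r = 0.974) and 9330175E14Rik (r = 0.964). Aqp9 was at 14.08 in HCC 1 and 13.77 in HCC 4 and between 10.65 and 12.55 in the others, with a mean of 13.45 in normal liver.

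Akr1c20 was most like the alcohol dehydrogenase Adh4 (r = 0.989), the tetraspanin Tspan12 (r = 0.985) and regucalcin (Rgn, r = 0.984). Rgn, a calcium-binding lactonase of hepatocytes, was at 15.12 in HCC 1 and in HCC 4 and at 12.24 and 12.18 in HCC 3 and HCC 6. Akr1c14 was most like Pcp4l1 (r = 0.976), carbonic anhydrase 4 (Car4, r = 0.974) and 4933433G15Rik (r = 0.974). The levels of Car4 were 11.83 in HCC 1 and 9.09 in HCC 4 and from 6.63 to 7.18 in the other tumours. Its mean in normal liver was 6.55, so Car4 was raised in HCC 4, where Akr1c14 differed from its normal mean by -0.53. Pcp4l1, Car4 and 4933433G15Rik were all below the median probe set in normal liver. Akr1c19 was most like Tpte (r = 0.973), Lrmda (r = 0.965) and Barx1 (r = 0.956), 3 genes below the median probe set in normal liver. In most tumours these 3 genes, 4933433G15Rik and 9330175E14Rik were also below the median probe set, so their r values rest partly on low levels. Akr1b8 was most like Slamf8 (r = 0.987), Ifitm1 (r = 0.987) and the hexokinase Hk3 (r = 0.984), all highest in HCC 6. Slamf8 and Hk3 are known from myeloid cells, whose part in the Akr1b8 level was not tested. Slamf8 was below the median probe set in normal liver and in most tumours. Ifitm1 had a mean of 9.72 in normal liver and lay at 7.74 to 8.82 in the tumours other than HCC 6. Hk3, at 7.93 in normal liver, was lower in HCC 1, HCC 2 and HCC 5.

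**Figure D3:**
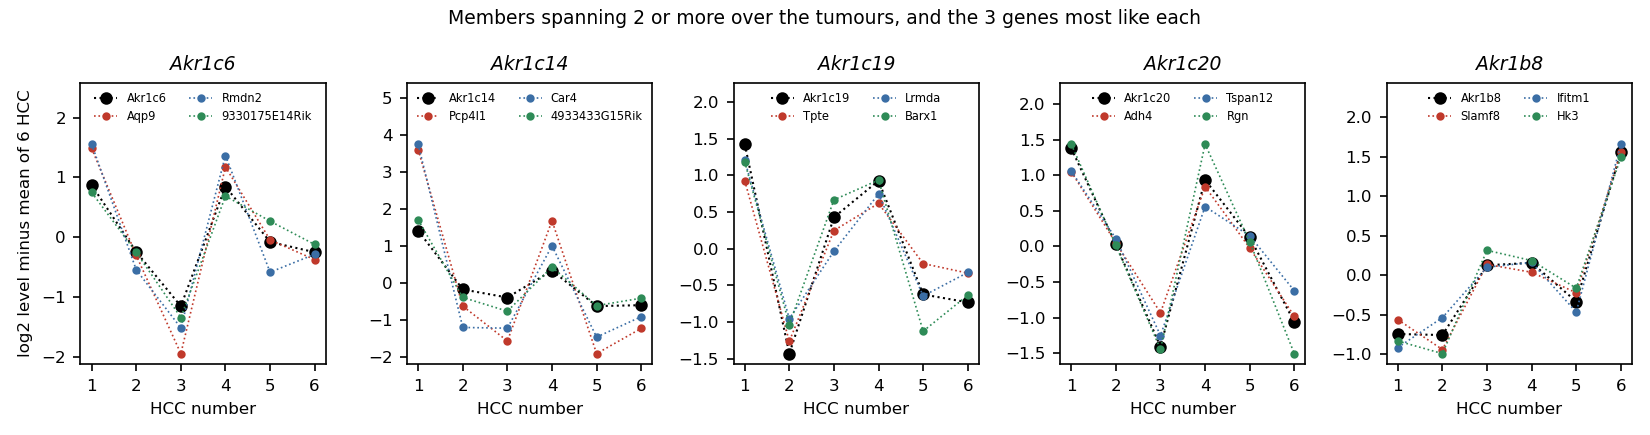
Pattern over the 6 HCC of the 5 members that spanned at least 2 on the log2 scale (black) and of the 3 genes most like each (colours), as log2 level minus the mean of the 6 tumours. Dotted lines join the points of 1 gene and carry no order. Akr1c6 and Akr1c20 share high values in HCC 1 and HCC 4 and the lowest in HCC 3, and Akr1b8 is highest in HCC 6.

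Among 9 measured aldo-keto reductases outside the listed members, 1 fell and 0 rose, with a median difference of -0.19, and 1 rose without HCC 2. Akr1d1, the 5-beta-reductase that shapes the steroid ring in bile acid synthesis and hormone clearance, fell by 1.69 ± 0.32 (SE, limma adjusted p = 0.00630), and by its other probe set it fell by 1.68 (limma adjusted p = 0.00180). Akr1c21, at the end of the cluster, averaged 8.21 in normal tissue against 7.98 in HCC. The level of Akr1b10, which neighbours Akr1b8, was 6.33 in normal tissue against 7.48 in HCC (limma adjusted p = 0.298). Of its other probe sets, both below the median probe set in both groups, one differed by 1.13 ± 0.32 (SE, limma adjusted p = 0.0473) and one by 0.58 ± 0.37 (limma adjusted p = 0.395). Akr1a1, the general aldehyde reductase, was at 15.28 and 15.11.

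All lists, that of the other aldo-keto reductases included, were chosen with earlier results of these data known, so their counts are descriptions. Lists of related genes were counted by the brightest probe set of each gene. Among all 18193 genes 10.8% passed in the same fit, 5.27% as higher and 5.49% as lower. Over all genes the median difference was -0.04. Of 21 other steroid dehydrogenases and reductases 7 fell and 0 rose, with a median of -0.61. The count of 7 was 4 without any of normal 2, normal 4, normal 5, normal 6, HCC 3 or HCC 5, and 5 to 7 without any other array. Rdh16, an oxidoreductase of retinol and 3-alpha-hydroxysteroids, fell by 2.06 ± 0.16 (SE, limma adjusted p = 2.01e-05). Hsd17b4, a peroxisomal multifunctional enzyme, fell by 1.02 ± 0.24 (limma adjusted p = 0.0197), and Hsd3b2 fell by 1.68 ± 0.48 (limma adjusted p = 0.0475, lost when any of 9 single arrays was left out, up to 0.0995). The calls of Hsd3b7 and Hsd17b7 were lost in the same way for 9 and 10 arrays (limma adjusted p up to 0.0707 and 0.0859). Hsd3b5, an enzyme of male mouse liver, had a difference of -3.88 ± 1.48 that did not pass (limma adjusted p = 0.132).

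Of 6 genes around the polyol and fructose pathway, into which aldose reductase feeds, 4 fell and 0 rose (median -0.86), with 2 falling without normal 5 and 3 or 4 without any other array. The fructose transporter Slc2a5 fell by 1.32, ketohexokinase (Khk) fell by 1.29 and the triokinase Tkfc fell by 0.92, with limma adjusted p-values of 0.0196, 0.0147 and 0.0267. Of these, Tkfc lost its call when any of 5 single arrays was left out (limma adjusted p up to 0.0617). Of 13 carbonyl-clearing enzymes 5 fell and 0 rose (median -0.53), with 3 falling without normal 4 and 4 or 5 without any other array, and 1 rising without HCC 4. They were led by the aldehyde dehydrogenase Aldh1a1, which fell by 1.69, the xylulose reductase Dcxr, which fell by 1.46, and Dhrs4, which fell by 0.85. Dhrs4 lost its call when any of 8 single arrays was left out (limma adjusted p up to 0.0648).

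Of 12 prostaglandin genes 1 rose and 1 fell (median -0.04), and 2 rose without HCC 4. The carbonyl reductase Cbr3 rose by 2.68 ± 0.46 (SE, limma adjusted p = 0.00372). Hpgd, which begins the breakdown of prostaglandins, fell by 1.21 ± 0.32, a call lost when any of 10 single arrays was left out (limma adjusted p up to 0.0723). Of 15 measured genes of the NRF2 pathway, whose targets in human cells include AKR1C and AKR1B enzymes, 3 rose and 1 fell (median 0.38). Nfe2l2, which encodes NRF2, rose by 0.92 ± 0.20 and the transporter Abcc4 by 2.15 ± 0.59, the latter lost when any of 9 single arrays was left out (limma adjusted p up to 0.0847). Srxn1 rose by 1.12, and malic enzyme (Me1) fell by 1.98. The classical target Nqo1 averaged 8.79 in normal tissue against 9.20 in HCC and did not pass (limma adjusted p = 0.534).

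Of 14 nuclear receptors of steroids and xenobiotics 2 fell and 0 rose (median -0.25), of which the drug receptor CAR (Nr1i3) fell by 1.80 ± 0.35 and the bile acid receptor FXR (Nr1h4) fell by 1.54 ± 0.31 (SE, limma adjusted p = 0.00785 and 0.00895). The progesterone receptor Pgr was below the median probe set in both groups, at 6.66 and 6.63. Markers of adrenal and gonadal steroid cells, which also express Akr1c18 and Akr1b7, were measured for 8 genes, of which 5 were below the median probe set in both groups. Their mean lay between 6.22 and 7.15 in normal livers and between 6.21 and 7.06 in HCC. Among these markers, Cyp17a1 was at 8.44 to 12.15 in normal livers and at 8.75 to 12.54 in HCC. The part of such cells in the Akr1c18 level was not tested. Star, of that list, fell by 1.40, a call lost when any of 8 single arrays was left out (limma adjusted p up to 0.0747).

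**Figure D4:**
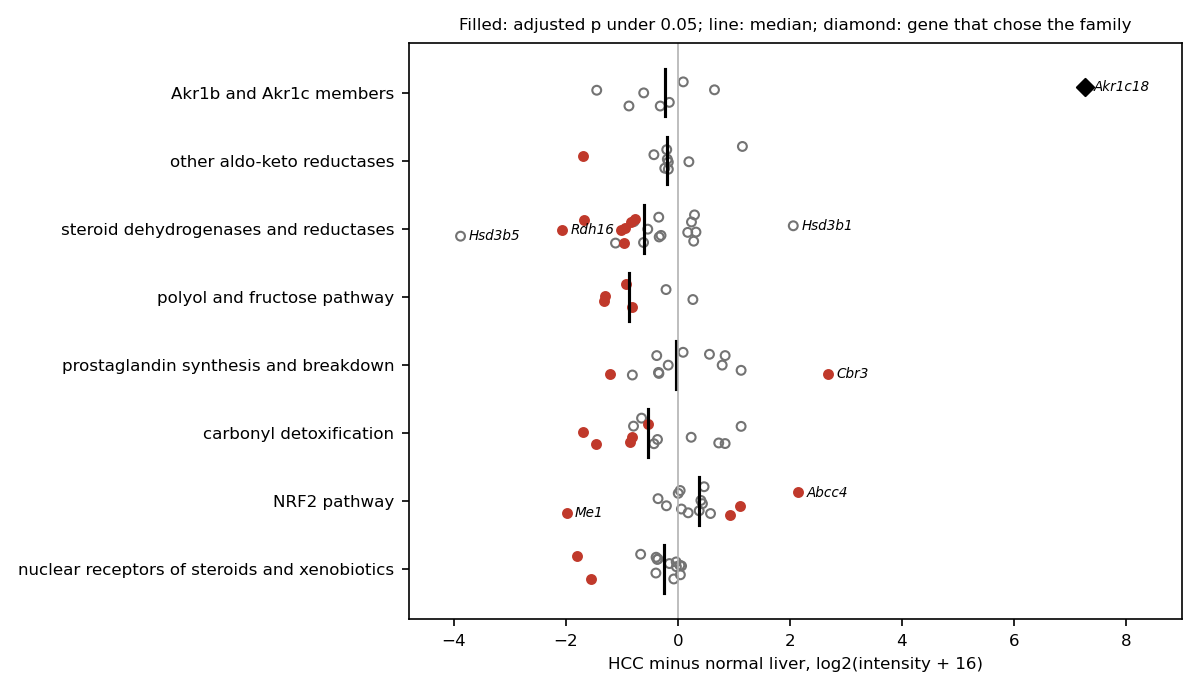
Log2 difference, HCC minus normal liver, of the 8 member genes and of the genes of 7 related lists, each by its brightest probe set. The diamond is Akr1c18, which chose the family and is not tested, filled points have a limma adjusted p under 0.05, open points do not, black lines give the median and genes beyond about 1.9 are named. Akr1c18 lies at 7.27 and the other members between -1.45 and 0.65.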

How the data were processed

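From each of 12 liver samples, 1 microgram of total RNA was amplified by one-cycle cDNA synthesis and biotin-labelled, per the labels' protocols, then hybridised to single-colour Affymetrix arrays. The deposited values were linear intensities of 45101 probe sets, each array having a 2% trimmed mean of 500.0; the sources used here do not give the probe summarisation. Between 14.2% and 18.1% of intensities per array lay under 16. The number of arrays limits the precision.

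After leaving out 64 control probe sets, log2(intensity + 16) was quantile normalized and fitted with limma 3.58.1 (lmFit and eBayes) in R 4.3.3, and two-sided p-values were Benjamini-Hochberg adjusted over 45037 probe sets. Of these, 34945 named 1 gene, 932 several and 9160 none, and a gene was represented by its brightest probe set. Lists held 158 entries, of which 141 matched by symbol, 1 by synonym (Hsd17b8 as H2-Ke6) and 16 had no probe set here. The list counts of related genes are given in the report; of the other marker lists, that of cholangiocytes had 0 of 5 past the test (smallest p for Cftr), endothelium 1 of 5 (Stab2, lower), Kupffer cells and macrophages 1 of 6 (Clec4f, lower), adipocytes 1 of 3 (Cidec, higher), pancreatic acinar cells 0 of 4 (smallest p for Prss2) and intestinal epithelium 1 of 5 (Vil1, higher). Of the 4 sex-linked genes measured, Xist, Eif2s3y, Kdm5d and Uty, 0 passed (limma; none had an unadjusted p under 0.05). Y-linked signal was present where the mean of its 3 genes lay above the midpoint of its range.

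Named genes were all members; for each list, up to 3 genes that passed and differed most, or else the smallest p; and the 3 with the highest Pearson r over 6 HCC for members spanning at least 2. Some others, such as Nqo1, Pgr, Hsd3b5, Nfe2l2 and the Akr relatives, were named for their role after their values were seen. Members and lists were chosen with earlier results of these data known. Arrays with the same number had correlations of deviations from -0.0177 to 0.0636 and were not paired. Windows were aligned with Biopython 1.88; tables and figures used Python 3.11.15 and matplotlib 3.10.9. The fit was tested on simulated data. Results were recomputed with other pseudocounts, scalings, filters, gene summaries, variance models, array weights, a replicate block, a Y-linked covariate or subset, a stricter threshold, and without each array.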

Additional observations from a re-analysis of the deposited data

Results flagged for a closer look

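In normal livers, the brighter probe set of Akr1c20 was set apart in normal 2, at 12.76 against 13.20 for the nearest of the other 5, a gap that made up 0.693 of the whole range. This lies above the 95% limit of Dixon's test for 6 samples, which about 1 in 20 groups passes by chance; 20 groups of member values were examined. The dimmer probe set of Akr1c20 was at 9.29 in the same liver, within the range of the others. Its cause was not tested.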

How the results depend on the processing

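In the main fit 1 member probe set was past the threshold, that of Akr1c18. The family was chosen on its value, so its place in the counts below is a description and not a test. The count was 2 (with Akr1c19) with a pseudocount of 64, median centring, a filter on dim probe sets, the brightest probe set per gene, the mean of a gene's probe sets, Y-linked signal as a covariate, or only probe sets that name 1 gene. It was 3 (with Akr1c14 too) within arrays with Y-linked signal and 0 within those without, which hold 2 arrays a group, and it ran from 1 to 3 when each array was left out, with 2 without HCC 4 and 3 without HCC 1. With the replicate number as a block it was 1, but the numbers do not pair the samples. Over all probe sets 3751 passed, against 2085 with that block, 1343 at an adjusted p of 0.01, 2497 for the brightest probe set per gene, 2180 for the mean per gene, 1481 within arrays with Y-linked signal and 10 within those without. Signs turned for the probe set shared by Akr1c12 and Akr1c13 with the deposited scaling (-0.10), median centring (-0.17) and within arrays with Y-linked signal (-0.18), and for Akr1c13 at -0.016, -0.083 and -0.19 in the same settings. Within arrays without Y-linked signal they turned for Akr1c6 (0.34), Akr1c12 (0.33), Akr1c14 (0.22) and Akr1c20 (0.88, and 0.54 by its dimmer probe set). Leaving out each array gave -0.021 to 0.089 for the shared probe set, -0.0044 to 0.19 for Akr1c13 and -0.43 to 0.13 for Akr1c20. The cause of these changes was not tested. The difference of Akr1c18, a description for the same reason, lay between 6.47 and 7.80 in all 27 alternatives. The count of related genes past the test, 25, was 23 to 26 in 3 alternatives (the counts per list without each array were added after seeing the data), and no member probe set passed the interaction in the same 3.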
